A study of Mus musculus with 3 samples.

Results

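DLX3 peaks that lay in the flanks of genes and carried no H3K4me3 were examined in mouse suprabasal keratinocytes, the epidermal cells that have left the basal layer and begun to differentiate. A peak was included when it shared no base with an H3K4me3 peak, its centre lay outside every protein-coding gene span, and that centre was 1 to 20 kb from the nearest end of such a span. Of the 18087 DLX3 peaks deposited by the authors, 2052 (11.3%) met the rule, and they covered 1.28 Mb. They are called flanking peaks here. The same rule without the H3K4me3 condition would have added 565 DLX3 peaks, which shared bases with H3K4me3. The members were chosen by the positions of the DLX3 and H3K4me3 peaks, so their number and their lack of H3K4me3 are descriptions and not findings.

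The cells came from wild-type BALB/c mice and were processed by chromatin immunoprecipitation and sequencing (ChIP-seq), which recovers the DNA fragments bound by the target of an antibody. There were 3 libraries, 1 each for DLX3, H3K4me3 and a nonspecific IgG, and no genetic or drug treatment set the groups apart. The IgG library had no peak list and was not analysed here. The cells were purified on a Percoll density gradient, the text of the series calls the mice neonatal and the sample labels call them adult, and the labels do not say whether animals were pooled. With 1 library per antibody there is no replicate spread, so no difference could be tested against it. Intervals below cover counting error only, and the read depth of the libraries is unknown because the peak lists hold no read counts.

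DLX3 is a homeodomain transcription factor that acts in epidermal, hair and tooth differentiation, and homeodomains of its family prefer a short core sequence, TAATT. H3K4me3, histone H3 trimethylated on lysine 4, marks active or poised promoters. Factor binding away from H3K4me3 is often found at enhancers, which are known to act on genes near and far; which gene a flanking peak acts on cannot be read from its position, and "nearest gene" is used here only as an address.

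The labelled cell type was checked against markers through H3K4me3. All 9 suprabasal keratinocyte markers, among them Krt1, Krt10 and Lor, had H3K4me3 within 1 kb of an end. So did 6 of 7 basal keratinocyte markers, among them Krt5 and Krt14, and 4 of 5 fibroblast markers (Col1a1, Col1a2, Dcn and Pdgfra). None of 4 melanocyte and none of 4 immune markers had it, with 1 of 3 endothelial markers (Kdr) and 1 of 3 neuron markers (Syt1). Among the same markers, flanking peaks had as their nearest gene 3 suprabasal (Sbsn, Krtdap, Lor), 2 basal (Krt14, Col17a1), 1 endothelial (Pecam1) and no fibroblast, melanocyte, immune or neuron marker. Of all protein-coding genes 7.38% were nearest to a flanking peak, so none among 3 to 5 markers of a cell type says little. In longer lists of the same cell types, H3K4me3 was at an end of 19 of 23 suprabasal, 13 of 16 basal, 13 of 20 fibroblast, 6 of 12 melanocyte, 5 of 21 immune, 4 of 15 endothelial and 11 of 19 neuron genes, against 59.3% of all protein-coding genes. The mark thus also stood at genes of other cell types, and the part of other cells in the peaks was not tested.

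Sequence could be read for the few flanking peaks that held a complete 300-base promoter window of a RefSeq gene (250 bases before the annotated start and 50 after it, GRCm38.p6). There were 16 such peaks, and every window in them belonged to a long noncoding RNA (lncRNA) gene. The windows below are shown because they hold the letters of the DLX3 homeodomain core (TAATT) or of the site of AP-1, the FOS and JUN dimer (TGANTCA). All 4 peaks with an AP-1 match and 3 of the 5 with a core match are shown; the other 2, near Sspn (Gm32838) and Nipal4 (Gm35624), are left out for length. Both strands were searched, capitals mark the matches (AATTA is TAATT on the other strand), and each sequence is written 5′ to 3′ on the strand of the lncRNA.

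5033421B08Rik, chr12:8510913-8511212, plus strand, in the peak 11049 bp upstream of Rhob: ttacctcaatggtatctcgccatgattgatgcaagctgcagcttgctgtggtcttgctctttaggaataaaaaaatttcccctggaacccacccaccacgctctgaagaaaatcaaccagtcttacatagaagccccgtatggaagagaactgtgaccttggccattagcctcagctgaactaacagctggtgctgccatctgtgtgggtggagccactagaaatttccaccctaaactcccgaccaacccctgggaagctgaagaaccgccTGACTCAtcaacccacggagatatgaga

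Gm40804, chr10:127925187-127925486, minus strand, in the peak 13504 bp downstream of Sdr9c7: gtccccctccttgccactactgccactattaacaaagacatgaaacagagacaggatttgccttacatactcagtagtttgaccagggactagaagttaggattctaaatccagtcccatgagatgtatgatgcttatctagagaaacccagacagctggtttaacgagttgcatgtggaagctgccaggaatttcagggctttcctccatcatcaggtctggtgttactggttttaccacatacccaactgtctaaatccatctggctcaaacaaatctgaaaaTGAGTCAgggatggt

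Gm32861, chr7:110288349-110288648, minus strand, in the peak 4835 bp downstream of Swap70: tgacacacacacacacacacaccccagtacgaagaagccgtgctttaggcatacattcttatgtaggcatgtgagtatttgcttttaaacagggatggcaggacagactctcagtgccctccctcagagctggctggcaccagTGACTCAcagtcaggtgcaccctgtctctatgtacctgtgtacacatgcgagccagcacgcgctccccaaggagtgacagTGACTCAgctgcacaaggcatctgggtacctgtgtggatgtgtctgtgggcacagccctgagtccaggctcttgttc

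Gm36201, chr17:67629283-67629582, minus strand, in the peak 1557 bp downstream of Lrrc30: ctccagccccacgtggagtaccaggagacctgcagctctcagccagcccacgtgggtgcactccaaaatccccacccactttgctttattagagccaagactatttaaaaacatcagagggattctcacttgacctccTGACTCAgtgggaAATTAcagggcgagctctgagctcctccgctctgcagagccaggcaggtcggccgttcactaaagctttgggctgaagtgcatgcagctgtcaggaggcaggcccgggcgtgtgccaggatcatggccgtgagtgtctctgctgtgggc

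Gm33122, chr7:129651809-129652108, minus strand, in the peak 16132 bp downstream of Wdr11: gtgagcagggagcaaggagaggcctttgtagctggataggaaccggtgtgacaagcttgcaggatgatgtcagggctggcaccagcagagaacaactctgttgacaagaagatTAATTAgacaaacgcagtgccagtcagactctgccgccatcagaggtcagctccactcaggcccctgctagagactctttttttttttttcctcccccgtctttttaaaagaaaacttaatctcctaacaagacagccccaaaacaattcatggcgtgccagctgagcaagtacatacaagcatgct

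Gm30448, chr9:114853614-114853913, minus strand, in the peak 9405 bp upstream of Cmtm8: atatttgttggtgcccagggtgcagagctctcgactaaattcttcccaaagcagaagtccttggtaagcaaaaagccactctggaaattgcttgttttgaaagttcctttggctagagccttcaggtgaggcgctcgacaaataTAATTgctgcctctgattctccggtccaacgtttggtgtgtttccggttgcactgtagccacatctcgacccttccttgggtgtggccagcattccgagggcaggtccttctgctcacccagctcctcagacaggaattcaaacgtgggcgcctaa

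The Rhob peak, beside the gene of a stress-induced small GTPase, had a score of 230.55 and 1 AP-1 match at the 3′ end of the window. The window near Sdr9c7, which encodes a retinol dehydrogenase-like enzyme of the skin barrier, also had 1 AP-1 match, in a peak that scored 183.72. The window near Swap70 held 2 AP-1 matches, and that near Lrrc30 held 1 AP-1 match and 1 homeodomain core match separated by a few bases. The Wdr11 window held TAATTA, which reads the same on both strands and so counts on each. The Cmtm8 window held the core followed by G (TAATTG). In all, 4 of the 16 windows held the AP-1 site (25%, 95% Wilson interval 10.2 to 49.5) and 5 held the homeodomain core (31.2%, 14.2 to 55.6). The AP-1 site was in 9.24% of all 11547 lncRNA windows of the same length, in 7.79% of all 32544 windows, and in 4.91% of the 3481 windows inside DLX3 peaks that shared H3K4me3. Its share in 95 windows inside the other DLX3 peaks without H3K4me3 was 28.4% (20.3 to 38.2). The homeodomain core was in 33.6% of lncRNA windows, 12.4% of those in DLX3 peaks with H3K4me3 and 44.2% of those in the other unmarked DLX3 peaks. The median GC content was 51.2% in the 16 windows, 48.3% in all lncRNA windows, 64.7% in windows with DLX3 and H3K4me3, and 52.3% in the other unmarked DLX3 peaks. The part of base composition in the motif shares was not tested. The matches describe letters and not sites of binding, and 16 windows give wide intervals.

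A pair of flanking peaks each held a microRNA gene. A peak 2594 bp downstream of Crtac1 (chr19:42280039-42280843, score 179.29) held Mir3085, and a peak 1980 bp from Bmp2, the gene of a bone morphogenetic protein ligand (chr2:133564518-133565235, score 97.92), held Mir3090. Their mature sequences are shown with the seed (bases 2 to 8) in capitals, and no seed was shared among the 4.

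mmu-miR-3085-5p: aGGUGCCAuuccgagggccaagagu

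mmu-miR-3085-3p: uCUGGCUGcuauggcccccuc

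mmu-miR-3090-5p: gUCUGGGUggggccugagauc

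mmu-miR-3090-3p: uCCCAGGUgacacccugacuca

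Most flanking peaks were modest in score, and a handful stood far above the rest. The score of each peak is the authors' own value. The median over flanking peaks was 77.69, with an interquartile range of 61.41 to 115.06 and a range of 50.01 to 2951.85. Intragenic DLX3 peaks without H3K4me3 (centre inside a protein-coding span, 5000 peaks) had a median of 75.33, and far intergenic ones (over 20 kb from any such gene, 3269 peaks) had 79.79. The 7615 DLX3 peaks that shared H3K4me3 had a median of 93.79. Among flanking peaks 919 (44.8%) reached the median of the whole DLX3 list and 348 (17.0%) lay in its top 20%. Their median width was 594 bp (interquartile range 482 to 723.25), between the 581 bp of intragenic and the 599 bp of far intergenic peaks, and below the 687 bp of peaks with H3K4me3.

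**Figure D1:**
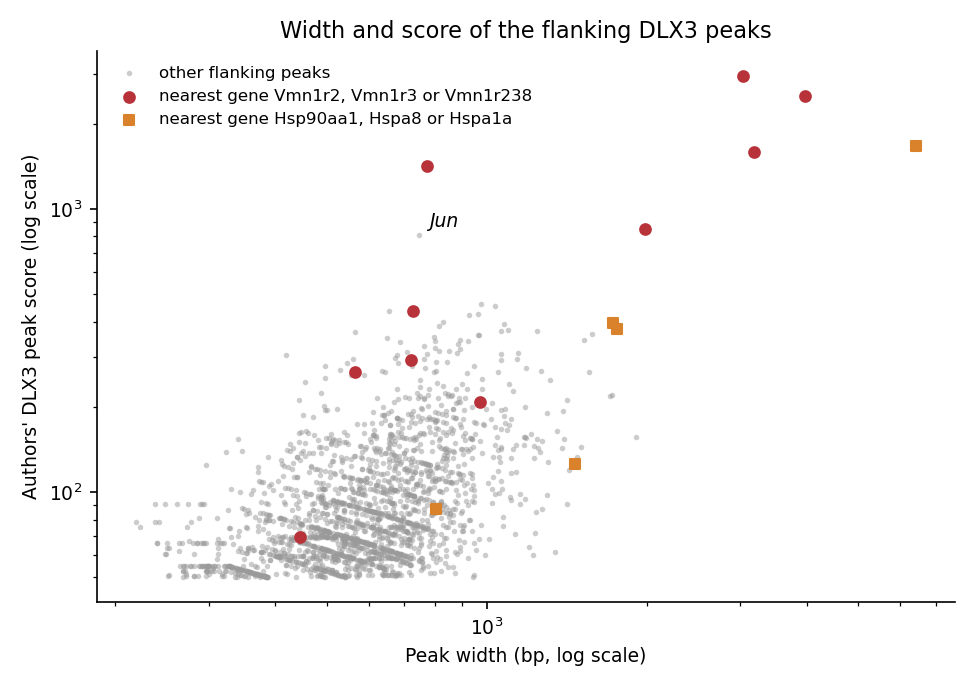
Width (bp, log axis) and authors' score (log axis) of the 2052 flanking DLX3 peaks, 1 point per peak. Peaks nearest to 3 vomeronasal receptor genes (red circles) reach 2951.85, the widest peak (6412 bp) is that of the heat-shock gene Hsp90aa1 (orange squares mark 3 heat-shock genes), and the Jun peak, at 809.39, stands above the other grey points.

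The highest scores lay next to vomeronasal receptor genes, which encode pheromone receptors of the nose. Flanking peaks nearest to Vmn1r238 scored 2951.85, 1594.52 and 208.3. Those nearest to Vmn1r2 scored 2509.82, 1415.16, 434.56, 293.22 and 69.53, and those nearest to Vmn1r3 scored 850.53 and 266.03. The Vmn1r2 and Vmn1r3 peaks all lay in chr4:3163559-3182726. The nearest H3K4me3 peak to any of these 10 peaks was 159564 bp away, and none of the 3 genes had H3K4me3 or DLX3 within 1 kb of an end. An 11th vomeronasal peak, near Vmn2r129, scored 59.49. Without these 11 peaks the median score of the remaining 2041 was 77.49 and the highest was 1667.44. Whether sequence repeats or gaps in the assembly play a part in these peaks was not tested.

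The highest score outside that family was at a heat-shock gene. Hsp90aa1, which encodes the inducible cytosolic chaperone HSP90 alpha, had a flanking peak of 1667.44 that spanned 6412 bp (chr12:110684739-110691150), with its centre 3092 bp from the gene. It was the widest flanking peak and the only one of the 2052 that reached into a protein-coding span. Hspa8, which encodes the constitutive chaperone HSC70, had flanking peaks of 394.26 (1728 bp wide) and 126.2 (1463 bp wide), centred 1942 and 3563 bp from the gene. Next to them a DLX3 peak within 1 kb of the gene end, also without H3K4me3, scored higher, at 502.25. Both genes had H3K4me3 at an end, but the end nearest to these peaks had none. At other heat-shock genes, chosen after their values were seen, the end nearest to the peak did have it: Hspa1a, an inducible HSP70 gene (377.21 and 87.15), its neighbour Hspa1b (258.72 and 50.09) and Hspb1, a small heat-shock protein gene (200.15).

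The Jun peak was the next in score. Jun encodes the core subunit of AP-1, and its flanking peak scored 809.39, was 746 bp wide (chr4:95068231-95068976) and lay 16381 bp upstream of the gene. The 3 DLX3 peaks at the gene itself scored 460.99, 236.28 and 99.64, and all shared an H3K4me3 peak of 6786 bp. The flanking peak thus had the highest DLX3 score of the locus and no H3K4me3. Other high flanking peaks without a vomeronasal or heat-shock neighbour scored 461.14 (Rbm15, an RNA-binding protein of the RNA methylation machinery, 17297 bp upstream), 453.7 (Foxp1, a forkhead repressor, 6051 bp upstream) and 436.65 (Wsb1, a ubiquitin ligase adaptor, 14584 bp downstream). They were followed by 427.17 (Krt42, a type I keratin, 19176 bp upstream), 421.46 (Dusp7, a phosphatase of ERK kinases, 7177 bp upstream) and 398.74 (Cttnbp2nl, 7264 bp downstream). All 6 genes had H3K4me3 at an end, and for Rbm15, Foxp1 and Dusp7 this was the end nearest to the peak.

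The density of flanking peaks over both sides changed little with distance from the gene end. Counted over flanking space without H3K4me3 (366.3 Mb), they numbered 5.60 per Mb (exact Poisson interval 5.36 to 5.85). This was above the 4.98 per Mb (4.84 to 5.12) of intragenic peaks in intragenic space and the 2.61 per Mb of far intergenic peaks in far intergenic space. By distance the density was 6.18 per Mb (5.34 to 7.11) at 1 to 2 kb, 4.79 (3.97 to 5.72) at 4 to 5 kb and 5.47 (4.68 to 6.35) at 17.5 to 20 kb. The median score at those distances was 72.91, 81.21 and 77.25. Downstream of genes the density was 5.46 to 6.64 per Mb between 1 and 4 kb and 4.43 to 4.92 beyond 5 kb, while upstream it was 5.16 to 6 and 5.67 to 6.32; the intervals of these bins overlap. Where the annotation gave the strand of the nearest gene, 911 of 1584 flanking peaks (57.5%, 55.1 to 59.9) lay upstream. The density was 5.85 per Mb (5.47 to 6.24) upstream and 4.98 (4.61 to 5.37) downstream, and the intervals did not overlap.

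**Figure D2:**
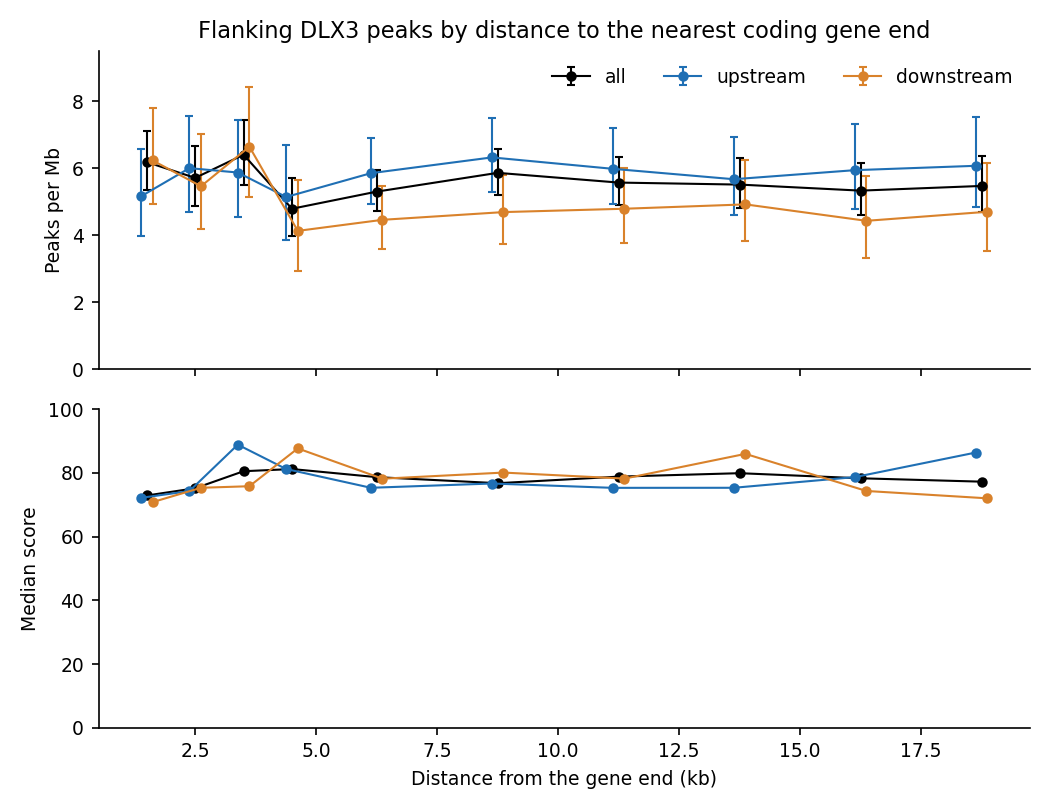
Density of flanking DLX3 peaks per Mb (upper panel, exact Poisson 95% intervals) and their median score (lower panel) by distance from the nearest protein-coding gene end in kb, for all flanking peaks and for those upstream or downstream. The density of all peaks stays between 4.79 and 6.40 per Mb, and points are shifted sideways to keep the bars apart.

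The larger contrast was between marked and unmarked gene ends. Upstream of ends with H3K4me3 within 1 kb, 722 flanking peaks gave 9.13 per Mb (8.47 to 9.82), and upstream of ends without it 189 peaks gave 2.46 (2.12 to 2.84). Downstream of the few gene ends with H3K4me3, 82 peaks in 4.632 Mb gave 17.7 per Mb (14.1 to 22.0), against 4.53 (4.17 to 4.91) downstream of ends without it. Within ends with H3K4me3 and within ends without it the density was thus higher downstream than upstream, the reverse of the order over all ends. On all sides together the densities were 9.45 and 4 per Mb. A flanking peak itself never counted as H3K4me3 or as DLX3 at an end. The nearest gene had H3K4me3 at an end for 1626 flanking peaks (79.2%, 77.4 to 80.9), against 59.3% of all 21887 protein-coding genes. The share was 81.0% for intragenic and 79.7% for far intergenic peaks, so it did not set flanking peaks apart.

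DLX3 at the gene end went the same way. The nearest gene had a DLX3 peak other than a flanking one within 1 kb of an end for 923 flanking peaks (45.0%, 42.8 to 47.1). The share was 45.1% for far intergenic peaks, against 27.4% of all protein-coding genes. It was 39.0% for intragenic peaks, but an intragenic peak within 1 kb of an end could count itself, so that value is not a like comparison. With only the top 20% of DLX3 scores kept, the share for flanking peaks fell by construction to 21.8%, against 7.33% of all genes at the same limit. Beside genes with both H3K4me3 and DLX3 at an end, flanking peaks reached 11.8 per Mb (11 to 12.6). Beside genes with H3K4me3 alone they reached 6.53 (6.07 to 7.02), and beside genes with neither 2.24 (2.02 to 2.47). The genes with DLX3 alone had 32 flanking peaks in 1.923 Mb, or 16.6 per Mb (11.4 to 23.5). Both marks come from the libraries that chose the members, so these densities are descriptions.

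**Figure D3:**
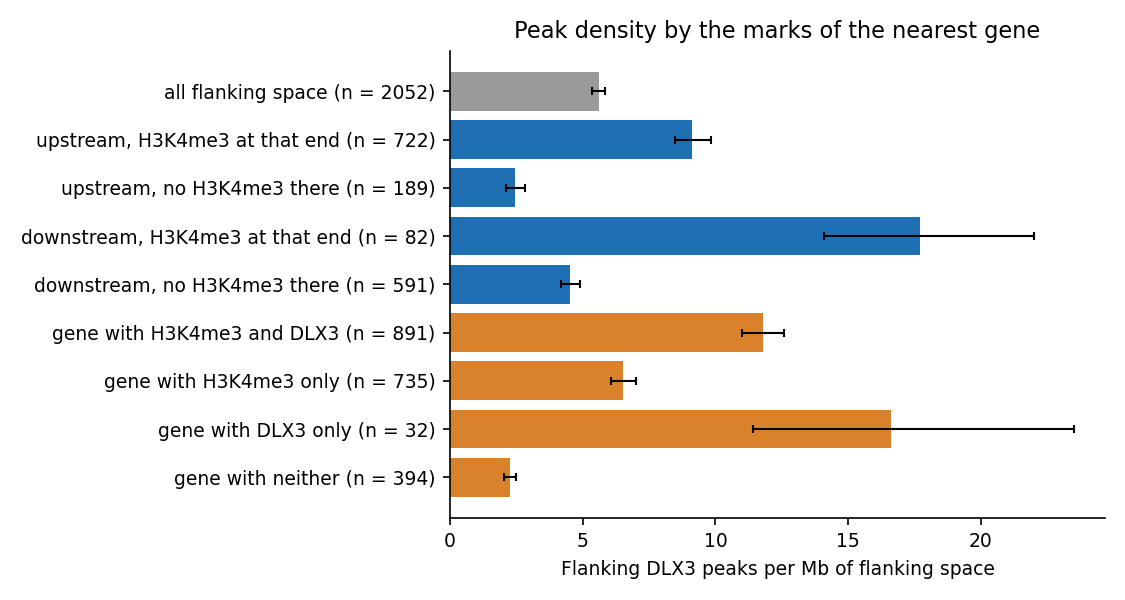
Flanking DLX3 peaks per Mb of flanking space, by side and H3K4me3 of the nearest gene end (blue) and by H3K4me3 and DLX3 at either end of the nearest gene (orange); lines are exact Poisson 95% intervals and n is the number of peaks. Every class with H3K4me3 at the gene lies above 5.60 per Mb, the value over all flanking space (grey). So does the class with DLX3 but no H3K4me3 at the gene (16.6 per Mb, from 32 peaks).

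Flanking peaks tended to have DLX3 neighbours. Another DLX3 peak was centred within 10 kb of 1080 of them (52.6%, 50.5 to 54.8), compared with 43.4% of intragenic and 40.0% of far intergenic peaks. For 520 flanking peaks (25.3%) a neighbour within 10 kb shared H3K4me3, compared with 13.4% of intragenic and 4.16% of far intergenic peaks. For 778 (37.9%) a neighbour lacked H3K4me3, close to 35.1% and 38.1%. At least 3 other DLX3 peaks lay within 10 kb of 211 flanking peaks (10.3%, 9.04 to 11.7), of 5.36% of intragenic and of 4.07% of far intergenic peaks. The median gap to the nearest H3K4me3 peak was 11614.5 bp, and 532 flanking peaks (25.9%) had one within 5 kb. Flanking positions lie near genes by construction, where H3K4me3 and the DLX3 peaks that share it are common, and the part of this in the higher shares was not tested.

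By chromosome the density ran from 4.15 per Mb (3.45 to 4.94) on chromosome 7 to 8.63 (7.37 to 10) on chromosome 11 among the autosomes. Chromosome 11, with 168 flanking peaks, holds the type I keratin cluster. Chromosome 4, at 8.59 per Mb from 178 flanking peaks, holds those of Jun (1), Vmn1r2 (5) and Vmn1r3 (2). The part of these loci in the densities of the chromosomes was not tested. Chromosome X had 12 flanking peaks, or 0.512 per Mb (0.265 to 0.895), and chromosome Y had none (upper limit 0.388 per Mb).

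Some flanking peaks lay in noncoding genes. The centre lay in the span of an lncRNA gene for 334 flanking peaks (16.3%, 14.7 to 17.9), while such spans take up 10.7% of flanking space. The share was 6.56% for intragenic and 23.9% for far intergenic peaks. The centre was within 1 kb of an lncRNA start for 44 peaks (2.14%, 1.60 to 2.87), against 1.11% of flanking space. Pseudogene spans held 14 (0.682%, 0.407 to 1.14), against 2.10% of flanking space.

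The 2052 flanking peaks had 1615 nearest genes, which is 7.38% of the 21887 protein-coding genes. Of these, 1287 had 1 flanking peak, 248 had 2 and 80 had 3 or more. H3K4me3 at an end was found for 57.9% of genes with no flanking peak, 76.1% (73.7 to 78.4) of those with 1, 80.6% (75.3 to 85.1) of those with 2 and 91.2% (83.0 to 95.7) of those with 3 or more. DLX3 at an end was found for 26.2%, 40.7%, 48% and 60% of them. The median width of the H3K4me3 peak at the gene was 2363, 2806, 3094 and 3558 bp in the same order. The flanking space belonging to a gene also widened, with medians of 15.5, 21.7, 22.5 and 26.3 kb, and its part in these shares was not tested. Among genes with H3K4me3, 9.65% were nearest to a flanking peak, and among genes without it 4.07% were. Within the marked genes, DLX3 was at an end of 53.2% (50.4 to 55.9) of those with a flanking peak and 44.4% (43.5 to 45.3) of the others.

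Krt80, which encodes a type II keratin of differentiating epithelial cells, was the nearest gene of more flanking peaks than any other. Its 8 flanking peaks scored 224.27, 156.29, 143.79, 132.89, 121.89, 75.33, 69.75 and 61.09. Of these, 5 lay on the side of the gene end with H3K4me3, 2217 to 14626 bp away, and 3 lay on the other side, 9654 to 17004 bp away. At the gene there were 2 further DLX3 peaks with H3K4me3, of 196.58 and 159.64, and 2 without, of 112.08 and 52.18. The highest score of the locus was thus in the flank.

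Perp, the gene of a tetraspan protein of desmosomes that is a target of p53 and p63, had 5 flanking peaks on the same side, 2025 to 17991 bp from the gene. They scored 288.85, 143.12, 88.07, 85.39 and 53.89. An H3K4me3 peak of 10484 bp covered most of the gene and held 4 DLX3 peaks of 410.54, 336.46, 145.4 and 101.19. Here the gene itself held the highest DLX3 score. P3h2, a collagen prolyl hydroxylase gene, also had 5 flanking peaks, of 243.67, 173.82, 161.87, 73.31 and 50.45, all beside the gene end without H3K4me3. They lay 50405 to 62633 bp beyond the end of the span of Trp63, the gene of the epithelial master regulator p63. Trp63 itself had no flanking peak and no H3K4me3 or DLX3 within 1 kb of an end of its span. Inside the span, however, an H3K4me3 peak of 6027 bp shared bases with a DLX3 peak of 109.39. Intragenic DLX3 peaks of Trp63 without H3K4me3 scored up to 131.91.

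**Figure D4:**
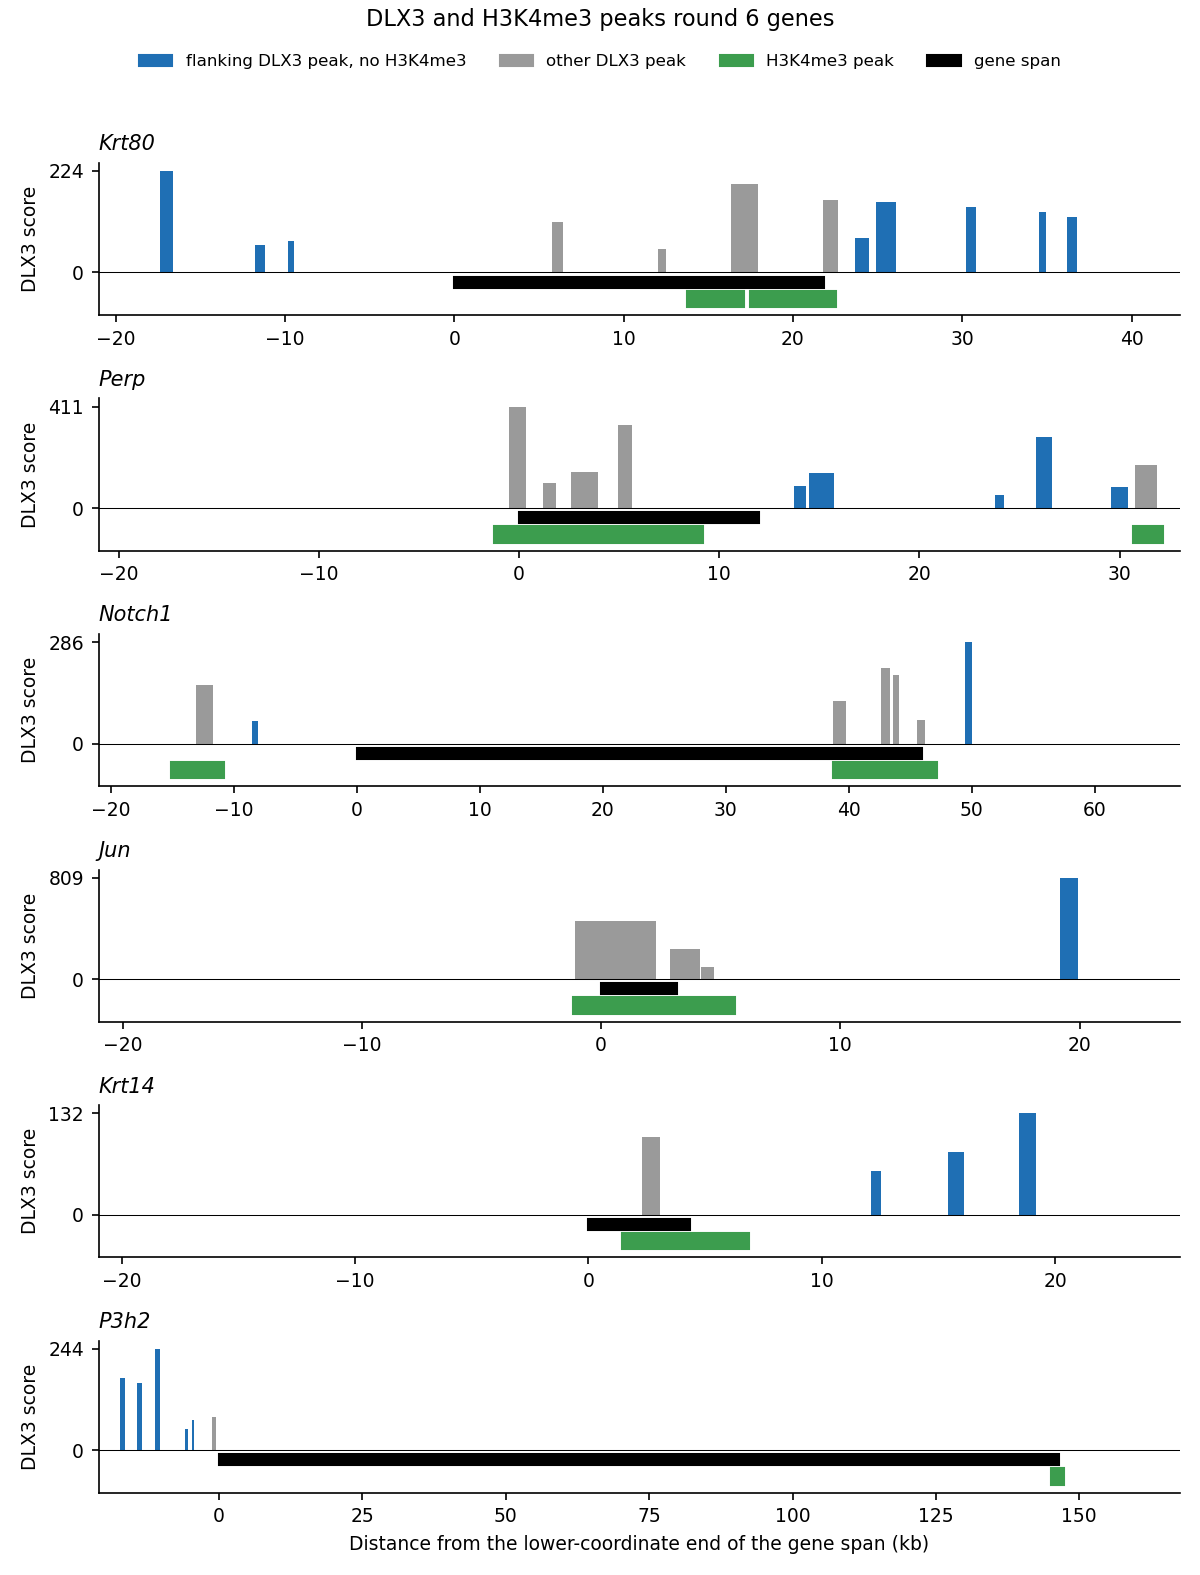
Peaks round 6 genes, by distance in kb from the lower-coordinate end of the gene span; bars are DLX3 peaks drawn to width with the authors' score as height (blue flanking, grey other), green boxes are H3K4me3 peaks and black boxes the gene spans. The blue bars are the tallest at Krt80, Notch1, Jun, Krt14 and P3h2, while at Perp a grey bar (410.54) is.

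Other genes with many flanking peaks were of varied function. Cttnbp2nl, which encodes a cortactin-binding protein, had 5, of 398.74, 125.23, 105.27, 82.76 and 68.08. Of these, 4 lay downstream and 1 upstream, 8 bp from an H3K4me3 peak. Ttc7b had 5 between 78.12 and 176.27, all upstream and 1132 to 8498 bp from the gene. Plekhf2, an endosomal protein gene, had 5 between 66.38 and 130.94. Micall2, which encodes a Rab13 effector of junction assembly, had 4 between 102.24 and 370.6. Lmo1, a LIM-only transcription regulator gene, had 4 between 70.78 and 358.81, all upstream, and Tamm41 had 4 between 55.06 and 307.15.

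Dlx3 itself had flanking peaks on both sides, all of low to middle score. They scored 96.14, 54.68 and 50.89, against 185.43 for the DLX3 peak that shared the H3K4me3 peak of the gene (8290 bp wide). The highest-scoring of these flanking peaks began 6 bp beyond that H3K4me3 peak, the smallest gap of any flanking peak. Its neighbour Dlx4, the paired family member, had flanking peaks of 265.43, 170.35 and 88.44, and the first of these lay between the genes, 1623 bp from Dlx4.

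**Figure D5:**
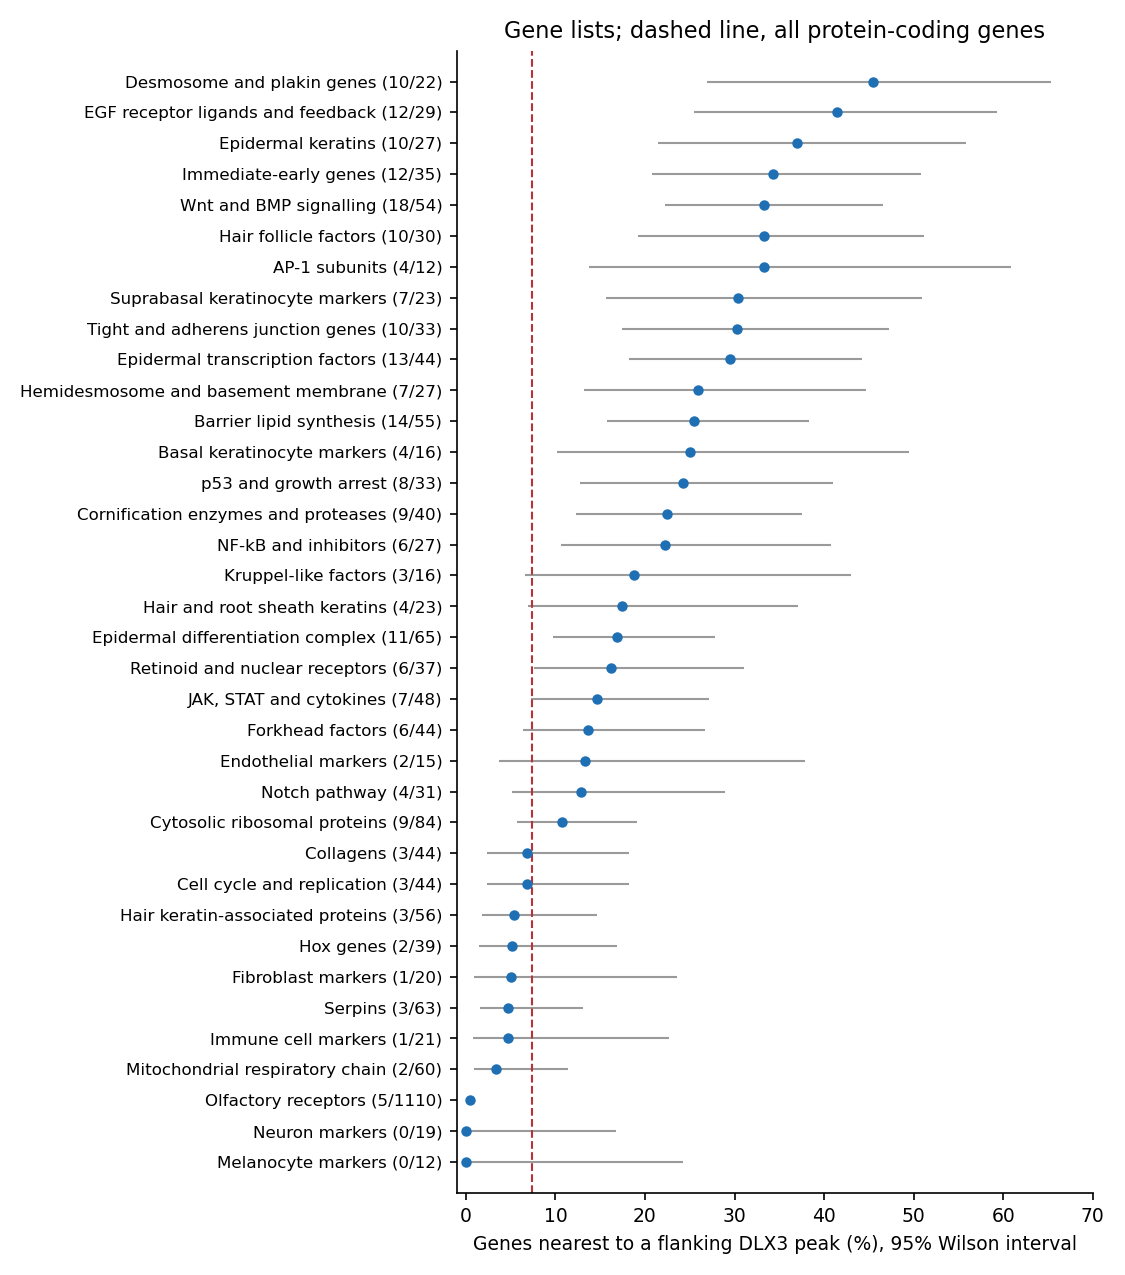
Share of the genes of each list that were nearest to at least 1 flanking DLX3 peak (points, %) with 95% Wilson intervals; the counts are in brackets and the dashed line is 7.38%, the share of all protein-coding genes. Points of the epidermal and signalling lists lie to the right of the line, and olfactory receptor genes (0.450%) to its left. Ribosomal protein (10.7%), endothelial (13.3%) and forkhead genes (13.6%) also lie to the right. Some intervals cross the line, such as those of the Notch pathway (5.13 to 28.9) and the Kruppel-like factors (6.59 to 43.0).

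Counts over 36 gene lists were set beside the 7.38% of all protein-coding genes. A gene could stand in several lists (Perp in 2, Krt80 in 2), and neighbouring genes of a cluster share their flanks. Genes of different lists also differ in flanking space (a median of 16.8 kb over all genes). Peaks per Mb of that space are therefore given for some of the lists, and the order by share and by density differs for others as well. For each list that has genes with a flanking peak, the median of their highest scores is also given. Over all 1615 such genes it was 81.83.

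Desmosome and plakin genes, which build the adhesive junctions and cytoskeletal linkers of the epidermis, had the highest share. Of 22, 10 were nearest to a flanking peak (45.5%, 26.9 to 65.3), with 22 peaks or 47.5 per Mb of their flanking space and a median of 113.54. Besides Perp they included the desmosomal cadherin genes Dsg1c (304.04 and 173.8) and Dsg2 (181.36, 170.05, 93.49 and 81.33), and the lower-scoring Plec (172.96 at the highest), Dsp (113.92), Pkp1 (113.17), Dsg4 (104.59), Jup (98.95), Macf1 (74.27) and Dsg1b (50.8). Of the 10, 9 had H3K4me3 at an end, Dsg1c being the exception, as did 20 of the 22.

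Tight and adherens junction genes came to 10 of 33 (30.3%, 17.4 to 47.3; median 78.76). The highest was Cdh3, the gene of P-cadherin, with 368.22 and 80.34, 7150 and 4331 bp from the gene. Claudin genes, whose products seal the tight junction, included Cldn4 (189.43, 10537 bp upstream) and Cldn3 (136.7, 100.8 and 78.1). Hemidesmosome and basement membrane genes came to 7 of 27 (25.9%, 13.2 to 44.7; median 67.8), led by Hspg2, the perlecan gene (146.12), Lamc1, a laminin chain gene (124.26), and Col17a1, the collagen XVII gene (109.01).

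Epidermal keratin genes, which encode the intermediate filaments of keratinocytes, came to 10 of 27 (37.0%, 21.5 to 55.8; median 118.92), with 23 peaks or 52.3 per Mb. Krt42 had 427.17, 387.35 and 110.97, all upstream at 8261 to 19176 bp. Krt8, a simple epithelial keratin gene, had 345.62 at 1326 bp upstream, with no H3K4me3 at an end. Krt14, the basal layer type I keratin gene, had 131.91, 81.29 and 56.86, at 14481, 11399 and 7980 bp upstream, and its 1 DLX3 peak with H3K4me3 scored 100.53. Krt1, Krt10 and Krt5, the main suprabasal pair and the basal type II keratin gene, were nearest to none, although all 3 had H3K4me3 at an end. Hair and root sheath keratins came to 4 of 23 (17.4%, 6.98 to 37.1; median 114.51), with Krt31 at 340.68 and 90.23, Krt33b at 153.85 and Krt33a at 75.17. None of those 4 genes had H3K4me3 at an end, against 7 of the 23.

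The epidermal differentiation complex, the gene cluster of cornified envelope proteins, came to 11 of 65 (16.9%, 9.72 to 27.8; median 97.71). S100a6, a calcium-binding protein gene, had 215.12, Pglyrp3, a peptidoglycan recognition protein gene, had 147.5 and 112.08, and Sprr4, a small proline-rich protein gene, had 137.29. Lor, the gene of loricrin, had 97.71 at 7907 bp upstream, and Ivl, the gene of involucrin, had 92.56 at 13284 bp downstream. Flg, the filaggrin gene, had none and no H3K4me3 at an end. Cornification enzymes and proteases came to 9 of 40 (22.5%, 12.3 to 37.5; median 100.39), with Ctsl, a cathepsin gene (178.82 and 102.24), Tgm5, a transglutaminase gene (156.09 and 73.54), and Padi4, a peptidyl arginine deiminase gene (112.92). Barrier lipid genes came to 14 of 55 (25.5%, 15.8 to 38.3; median 89.62). Among them were Alox12, a lipoxygenase gene (218.06 and 50.77), Scd1, a fatty acid desaturase gene (191.69 and 52.07), and Pnpla1, which acts in acylceramide synthesis (143).

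Of the layer markers, 7 of 23 suprabasal (30.4%, 15.6 to 50.9; median 72.45) and 4 of 16 basal genes (25%, 10.2 to 49.5; median 120.46) were nearest to a flanking peak. The suprabasal ones were led by Krt80 and by Lypd3, a surface protein gene (105.39), and the basal ones by Cdh3, Krt14 and Col17a1. The intervals of the shares overlap.

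Epidermal transcription factor genes came to 13 of 44 (29.5%, 18.2 to 44.2; median 96.14). After Dlx4 the highest were Elf3, an ETS factor gene of differentiating epithelia (196.14, 5411 bp downstream), and Pou3f1, a POU factor gene (160.71, 12501 bp away). Prdm1, the gene of the repressor BLIMP1, had 3, with 146.35 the highest. AP-1 subunit genes came to 4 of 12 (33.3%, 13.8 to 60.9; median 245.92). They were Jun, Atf3 (326.94, 10518 bp upstream), Fos (164.89, 78.4 and 66.83) and Fosl2 (101.02), and all 4 had both H3K4me3 and DLX3 at an end, where 10 and 8 of the 12 had these marks. Kruppel-like factor genes came to 3 of 16 (18.8%, 6.59 to 43.0; median 81.44), with Klf6 at 278.47, Klf7 at 81.44 and Klf11 at 69.06 and 52.2.

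Immediate-early genes, which cells switch on within minutes of a stimulus, came to 12 of 35 (34.3%, 20.8 to 50.8; median 137.86), and all 12 had DLX3 at an end, as did 28 of the 35. All 35 had H3K4me3 there. Besides Klf6 and Rhob they were led by Egr3, a zinc finger factor gene, with 186.35, 105.96 and 79.98. Genes of p53 and growth arrest came to 8 of 33 (24.2%, 12.8 to 41.0; median 135.88), with Perp, Btg2, an antiproliferative gene (156.05, 101.05, 55.74 and 53.43), and Ccng2, a cyclin G gene (152.11). Cell cycle and replication genes came to 3 of 44 (6.82%, 2.35 to 18.2; median 88.08), near the background: E2f2 at 92.53, Cdc25a at 88.08 and Birc5 at 58.74.

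Genes of EGF receptor ligands and feedback came to 12 of 29 (41.4%, 25.5 to 59.3; median 146.9). Dusp7 had 421.46, 112.06 and 69.53, Epgn, the gene of the ligand epigen, had 214.28 and 63.49, and Dusp16, a phosphatase gene for JNK and p38, had 196.82 and 165.46. Wnt and BMP signalling genes came to 18 of 54 (33.3%, 22.2 to 46.6; median 100.78). Fzd10, a Wnt receptor gene, had 230.55, 134.03 and 82.27, Tgfbr1, a TGF-beta receptor gene, had 222.79 and 140.55, and Ctnnb1, the beta-catenin gene, had 186.2 at 14289 bp upstream. The list also holds Tgfa, the gene of an EGF receptor ligand (103.65 at the highest). Hair follicle genes came to 10 of 30 (33.3%, 19.2 to 51.2; median 85.12), led by Lrig1, a stem cell regulator gene (219.06, 187.24 and 59.53), Foxq1, a forkhead gene of the hair shaft (218.74 and 54.46), and Cux1, a homeodomain factor gene (183.32 and 74.73).

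The Notch pathway, which drives the switch from basal to suprabasal fate, came to 4 of 31 (12.9%, 5.13 to 28.9; median 120.7). Notch1, a receptor gene, had a flanking peak of 286.27 (chr2:26507346-26507890) that lay 3796 bp upstream and 2247 bp beyond an H3K4me3 peak of 8450 bp. The 4 DLX3 peaks that shared bases with that H3K4me3 peak scored 214.17, 192.86, 121.37 and 65.13, all below it. Notch2, another receptor gene, had 133.21 and 80.28, Nrarp, a feedback inhibitor gene, had 108.18 and 61.48, and Maml3, a coactivator gene, had 75.74. JAK, STAT and cytokine genes came to 7 of 48 (14.6%, 7.25 to 27.2; median 62.79): Tyk2, a kinase gene, had 120.05, Socs7 100.97, Il24, a cytokine gene without H3K4me3 at an end, 71.06, and Socs3, a feedback inhibitor of STAT3, 62.79 and 58.21, both downstream. NF-kB genes came to 6 of 27 (22.2%, 10.6 to 40.8; median 69.96), with Ripk4, a kinase gene of epidermal differentiation (109.75), Traf1 (109.26) and Nfkb1 (81.26). Retinoid and nuclear receptor genes came to 6 of 37 (16.2%, 7.65 to 31.1; median 77.49), with Nr4a1 (132.72), Vdr, the vitamin D receptor gene (109.4), and Aldh1a3 (78.31). Forkhead genes came to 6 of 44 (13.6%, 6.40 to 26.7; median 80.48), with Foxp1 and Foxq1 first and Foxo3 next (85.63).

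By share of genes, most lists of other cells and of housekeeping functions lay nearer to the background or below it. Endothelial markers, at 13.3%, lay slightly above the Notch pathway (12.9%). Cytosolic ribosomal protein genes came to 9 of 84 (10.7%, 5.74 to 19.1), led by Rps15a (192.91), Rpl29 (111.69) and Rps19 (108.73). Mitochondrial respiratory chain genes came to 2 of 60 (3.33%, 0.919 to 11.4), Ndufv3 (87.68) and Sdhd (51.42). Collagen genes came to 3 of 44 (Col17a1, Col16a1 at 71.02 and Col26a1 at 67.73), and Hox genes to 2 of 39 (Hoxb1 at 158.85 and 103.15, Hoxb9 at 50.8). Serpin genes came to 3 of 63 (Serpina11 at 140.62, Serpina5 at 115.58 and Serpinb12 at 57.65), and hair keratin-associated protein genes to 3 of 56 (Krtap24-1 at 82.05, Krtap19-1 at 76.55 and Krtap8-1 at 53.29). Fibroblast markers came to 1 of 20 (Mfap5, 77.07), immune markers to 1 of 21 (Cd52, 54.02) and endothelial markers to 2 of 15 (Pecam1 at 97.77 and Flt1 at 84.12). No flanking peak was nearest to any of 12 melanocyte markers (upper limit 24.2%) or 19 neuron markers (16.8%). Olfactory receptor genes came to 5 of 1110 (0.450%, 0.193 to 1.05), led by Olfr455 (143.01), Olfr9 (118.76) and Olfr223 (79.81), and 1 of the 1110 had H3K4me3 at an end. Median highest scores were 115.58 for serpin, 104.82 for Hox, 90.94 for endothelial and 82.72 for ribosomal protein genes, all above the 81.83 of all genes. They were 79.81 for olfactory receptor, 77.07 for fibroblast, 76.55 for hair keratin-associated, 71.02 for collagen, 69.55 for respiratory chain and 54.02 for immune genes. Some epidermal lists, such as the tight and adherens junction genes (78.76), were also below 81.83.

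Per Mb of flanking space the order of some lists changed, since the flanks of ribosomal protein genes (median 6.6 kb) and Hox genes (1.4 kb) were short. Ribosomal protein genes had 13.8 flanking peaks per Mb (exact Poisson interval 6.88 to 24.7) and Hox genes 12.3 (2.55 to 36.1, from 3 peaks), against 5.60 over all genes. These values are above those of the epidermal differentiation complex (11.3, 6.02 to 19.3), the Notch pathway (11.2, 4.12 to 24.4) and the JAK, STAT and cytokine genes (9.15, 4.19 to 17.4). They are also above those of the Kruppel-like factor (8.49, 2.31 to 21.7), retinoid and nuclear receptor (8.48, 3.11 to 18.5) and forkhead genes (6.98, 2.81 to 14.4). The ribosomal value is above that of the hemidesmosome and basement membrane genes too (12.8, 5.15 to 26.4). All these intervals overlap. Cell cycle genes were at 6.48 per Mb (1.34 to 18.9), respiratory chain genes at 3.53 (0.427 to 12.7), collagen genes at 3.40 (0.701 to 9.94), serpin genes at 2.72 (0.741 to 6.97) and olfactory receptor genes at 0.237 (0.0769 to 0.553). Genes of EGF receptor ligands and feedback (41.4% by share) were at 20.4 per Mb (11.7 to 33.1), below suprabasal markers (30.4%) at 31.8 (17.8 to 52.5). Hair and root sheath keratins (17.4%) were at 22.5 (7.31 to 52.6). Endothelial markers (13.3%) were at 8.45 (1.74 to 24.7, from 3 peaks), close to the Kruppel-like factor genes (8.49). The intervals of the epidermal keratin (33.1 to 78.4) and desmosome lists (29.8 to 71.9) lay above those of the ribosomal protein genes. Krt80 alone gave 8 of the 23 keratin peaks, and Perp gave 5 of the 22 desmosome peaks. These intervals treat peaks as independent, and whether the separation holds without those genes was not tested.

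Peaks at the edges of the rule had scores within the range of the members. Just inside the 1 kb limit were peaks of Hmg20b (1011 bp, score 149.61), Bdh1 (1013 bp, 361.33) and Bnc2 (1013 bp, 60.39), and just outside it were those of Hyal1 (998 bp, 87.83) and Pdcd2l (986 bp, 96.25). At the 20 kb limit Yeats4 (19997 bp, 84.47), Plpp7 (19996 bp, 85.13) and Echdc3 (19995 bp, 50.16) were inside, and Grpel1 (20002 bp, 110.56), Olfr225 (20008 bp, 199.49) and Ifnar2 (20078 bp, 67.73) were outside. By H3K4me3, peaks of Dlx3, Cttnbp2nl and Lrrc47 were members with gaps of 6, 8 and 14 bp, while those of Ormdl3, Rasl11b and Crk were not, with 20, 35 and 43 shared bases.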

How the data were processed

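The deposited files were 1 peak list each for DLX3 (18087 peaks) and H3K4me3 (16735 peaks), with position, name and a score per peak. The score is the authors' deposited value, its scale is not stated, and its range was 50.01 to 3100 in the DLX3 list (50 to 3233.06 in the other). Bowtie 1.1.2, MACS 1.4.2 and HOMER with build mm10 are listed per the submitters' processing notes; both lists have IgG in their names, but the sources used here do not state the settings of the tools or that the IgG library was the control. Peaks were called once per library, so nothing was pooled.

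Gene spans came from RefSeq (GRCm38.p6, 21887 protein-coding genes on assembled chromosomes), and strand from its promoter table, which gave one for 17492 of them. Overlap meant at least 1 shared base, a gene end was marked by a peak within 1 kb of it, and flanking peaks did not count as DLX3 at an end. Distances run from the peak's centre to the nearest span end, and positions count from 1. Densities divide peaks by flanking bases outside H3K4me3 peaks. Shares have 95% Wilson intervals and densities exact Poisson intervals, which treat peaks as independent although many lie near another. No test was run. The classification was tested on simulated peaks and recovered overlap in 400 of 400 and the gene, distance and side in 325 of 325. Python 3.11.15, pandas 2.3.3, numpy 2.4.6 and scipy 1.17.1 were used.

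The members, the gene lists and the comparisons were chosen with earlier results of these data known. Named genes are those nearest to the 15 highest-scoring flanking peaks, the 10 with the most flanking peaks, the 3 of each list with the highest-scoring flanking peak, and always Dlx3, Notch1, Trp63, Socs3, Lor, Ivl, Flg, Krt14, Krt5, Krt10 and Krt1; members named beyond these to complete a list, the genes at the edges of the rule and those beside the sequences mentioned were chosen after their values were seen. No genome sequence was used, so the motifs planned for the peaks' centres were searched in RefSeq promoter windows inside peaks, 1 window per peak. Of the listed symbols, 14 matched no gene. Alternatives were stricter scores, other overlap rules, other distances and windows, and leaving out predicted genes or vomeronasal peaks.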

Additional observations from a re-analysis of the deposited data

How the results depend on the processing

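Of 52 alternative values, 36 stayed within the interval of the reported value or within 1.5 times the reported count, and 16 did not. Keeping DLX3 peaks at or above the median score left 919 flanking peaks (median score 121.89) beside 793 genes, and the top 20% of scores left 348 (179.38) beside 316; fewer peaks enter by construction. Under these 2 limits DLX3 was at an end of the nearest gene for 33.1% and 21.8% of flanking peaks (16.6% and 7.33% of all genes at those limits), and another DLX3 peak lay within 10 kb of 39.1% and 30.2%. With distances of 1 to 10 kb there were 1242 flanking peaks, 56.8% of them with another DLX3 peak within 10 kb. Windows of 5 kb round gene ends gave 83.6% with H3K4me3 and 55.1% with DLX3 at the nearest gene, against 34.4% of all genes for DLX3. Another DLX3 peak was within 5 kb of 34.7% and within 20 kb of 70.8%. The share upstream stayed between 55.8% and 58.3% under the alternatives run. Leaving out the 11 vomeronasal peaks was chosen after seeing the data. The planned search for AP-1 sites at the centres of peaks was not run, since no genome was used. No paired analysis was possible because each antibody has 1 library.

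Differences between the classes of peaks have no replicate check. The read depth behind the scores is unknown, so peaks below the authors' threshold are not seen, and fewer peaks at a gene does not show less binding. The nearest gene is an address and not a target, and 676 flanking peaks (32.9%) had 2 or more protein-coding genes within 20 kb.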
